A study of Saccharomyces cerevisiae with 6 samples.

Results

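The genes described here are the G1 cyclins CLN1, CLN2, CLN3, PCL1 and PCL2 of the budding yeast Saccharomyces cerevisiae, the transcription factor subunits SWI4, SWI6 and MBP1, and the inhibitors WHI5 and SRL3. They were chosen by name, as genes known to set the decision to begin a cell cycle, and with earlier results of these data known. They are 10 of the 5449 genes tested. Each has 1 probe set on the Affymetrix array, and all 10 lay above the array background on all 6 arrays, so none was lost to a filter on low values. Background was taken as the 95th percentile of the probe sets for the fission yeast on the same array, 4.18 to 4.31 on the log2 scale.

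The study compared 3 arrays of a wild type with 3 arrays of a strain that lacks PMR1, the Golgi pump for calcium and manganese. Per the labels, both groups have the background strain given as BY4147 in one place and as BY4741 in another. The wild type is listed as MAT a with the marker deletions ura3Δ0, leu2Δ0, his3Δ0 and met15Δ0, and the mutant, NGY051, as BY4741 with PMR1 replaced by a kan cassette (pmr1Δ::kann). Cells of both strains were in exponential phase and grew in YPAD, a rich medium, to which 5 mM calcium chloride was added, so a culture without added calcium is not part of the comparison. The deletion was given as 1 strain. Whether replicates came from separate cultures is not in the labels, so p-values cover the spread among these arrays alone, and that spread may be technical. The labels mention no synchronisation, so a level is an average over cells in all phases, and a change in the share of cells in G1 cannot be told apart from a change of transcript per cell.

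Start is the point in late G1 at which a yeast cell commits to division. Cln3, bound to the kinase Cdc28, acts on Whi5, an inhibitor of the transcription factor SBF, which is made of Swi4 and Swi6. SBF then drives CLN1, CLN2 and PCL1, and the Cln1 and Cln2 kinases feed back on the same switch and start bud growth. MBF, made of Mbp1 and Swi6, drives genes of DNA replication at the same time. Pcl1 and Pcl2 are cyclins of another kinase, Pho85. Srl3, also called Whi7, is a relative of Whi5 that holds back Cln3.

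Levels are RMA values on the log2 scale, and differences are deletion minus wild type on that scale. The check of the labels was clear. PMR1 had a wild-type level of 11.81 ± 0.021 (SD, n = 3) and a deletion level of 3.13 ± 0.33 (SD, n = 3), below the array background. The array medians over the tested probe sets lay between 10.34 and 10.39, and the median change over all tested probe sets was 0.0095. All 7 measured markers of a cells were above background on every array, with mean levels from 7.77 to 13.39, and MFALPHA1, the alpha-cell pheromone gene, was above it on 0 arrays. The other 3 alpha-cell markers, MFALPHA2, STE3 and SAG1, were above it on all 6 arrays. These markers also moved between the groups. Of the a-cell markers 5 were lower in the deletion by limma, with MFA1 at -0.66, MFA2 at -0.64, STE2 at -0.46, AGA2 at -0.42 and STE6 at -0.41, while ASG7 was higher at 0.22 and BAR1 did not pass. Of the alpha-cell markers STE3 was higher at 0.55 (adjusted p = 0.000888), SAG1 at 0.19 and MFALPHA2 at 0.12. Their part in the other results was not tested.

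All 5 G1 cyclins rose in the deletion, the 3 transcription factor subunits did not pass the test in either direction, and of the inhibitors SRL3 rose and WHI5 did not pass. Thus 6 of the 10 genes were higher and 0 lower by limma at an adjusted p under 0.05, a share of 60% higher. Over all 5498 tested probe sets 17.5% were higher and 11.7% were lower by the same rule. The median change of the 10 genes was 0.26. At an unadjusted p under 0.05 the lower genes numbered 2, SWI6 and WHI5, while 17.4% of all tested probe sets were lower by that rule. With array weights 2 of the 10 genes were lower, while 1087 of the 5498 tested probe sets were lower in that setting.

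**Figure D1:**
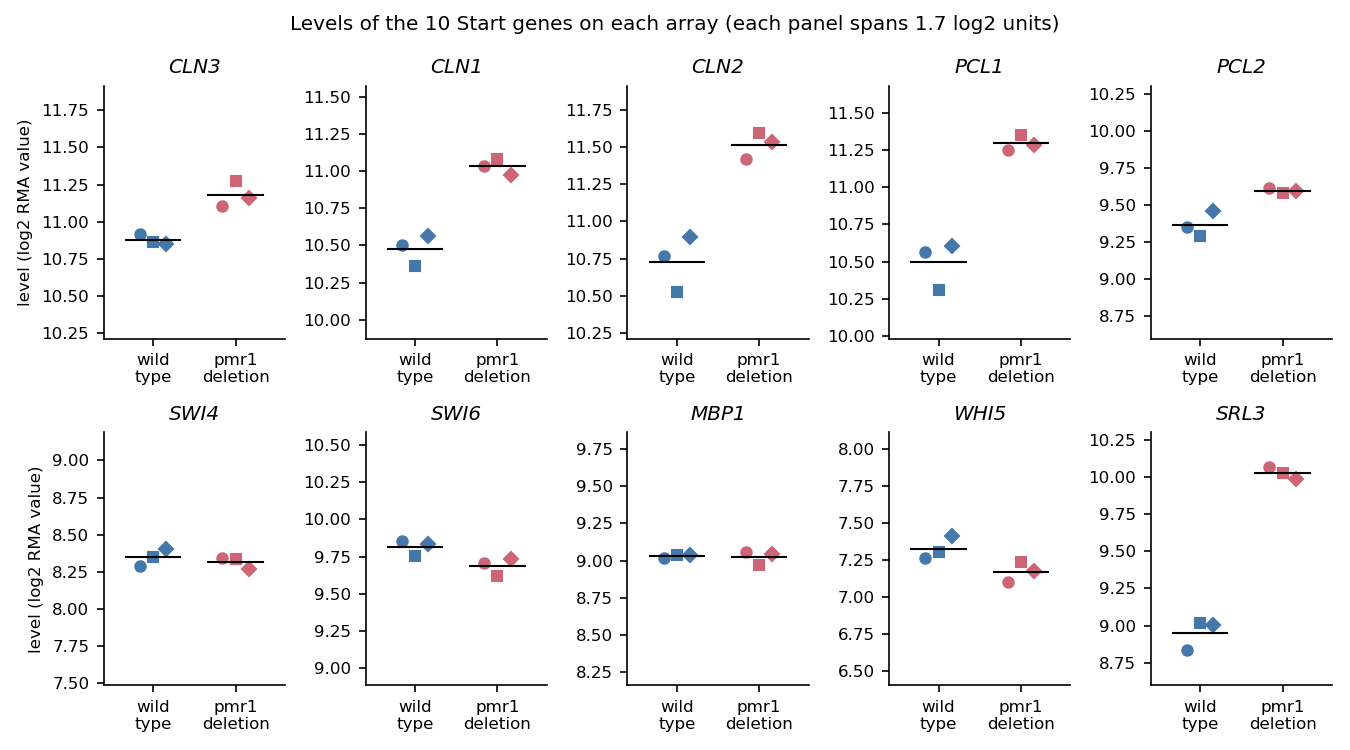
Levels (log2 RMA values) of the 10 genes on each array, blue for the wild type and red for the pmr1 deletion, with circles, squares and diamonds for replicates 1, 2 and 3 and a line at the group mean. Each panel has its own axis of equal span, and the groups stand apart most for SRL3, PCL1 and CLN2.

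CLN3, the upstream cyclin that couples growth to Start, rose by a small amount. Its wild-type levels were 10.92, 10.86 and 10.85 in replicates 1, 2 and 3, and its deletion levels were 11.10, 11.28 and 11.16. All 3 deletion values lay above all 3 wild-type values, and deletion replicate 2 was the highest. The change was 0.30 (SE 0.051), a fold of 1.23, with a limma adjusted p of 0.00562.

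CLN1 and CLN2, the cyclins that SBF drives and that act next, rose by 0.56 and 0.79, beside 0.30 for CLN3. CLN1 had wild-type levels of 10.50, 10.36 and 10.56 and deletion levels of 11.03, 11.08 and 10.98. CLN2 had wild-type levels of 10.77, 10.53 and 10.90 and deletion levels of 11.42, 11.60 and 11.54. In both genes the groups did not overlap, and wild-type replicate 2 was the lowest array. The fold was 1.47 for CLN1 (SE of the log2 change 0.059, limma adjusted p = 0.000873). For CLN2 it was 1.73 (SE 0.096, adjusted p = 0.00155). Without wild-type replicate 2 the changes were 0.50 and 0.69, and both still passed the test.

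PCL1, the Pho85 cyclin that SBF drives in late G1, also rose. Its wild-type levels were 10.56, 10.31 and 10.61 and its deletion levels 11.25, 11.35 and 11.28. Here too the groups did not overlap and wild-type replicate 2 was the lowest. The change was 0.80 (SE 0.08, limma adjusted p = 0.000656), a fold of 1.75. Without wild-type replicate 2 it was 0.71.

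PCL2, the other Pho85 cyclin of G1, which is also driven by the mitotic exit factor Swi5, had the smallest rise among the 5 cyclins. Wild-type levels were 9.35, 9.29 and 9.46 and deletion levels 9.61, 9.58 and 9.59. The groups did not overlap, and the deletion arrays were close together. The change was 0.23 (SE 0.049, limma adjusted p = 0.0141), a fold of 1.17. Wild-type replicate 2 was again the lowest array, and without it the change was 0.19 (adjusted p = 0.0246). The call of PCL2 ended without deletion replicate 1 (adjusted p = 0.0567) and when every probe set on the array entered the test (0.0626).

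SWI4, the DNA-binding subunit of SBF, had wild-type levels of 8.29, 8.35 and 8.40 and deletion levels of 8.34, 8.34 and 8.27. The groups overlapped, and the change of -0.031 had a 95% interval of -0.13 to 0.070 (limma adjusted p = 0.62). MBP1, the DNA-binding subunit of MBF, had wild-type levels of 9.02, 9.04 and 9.04 and deletion levels of 9.06, 8.97 and 9.04. These overlapped as well, and the interval of its change ran from -0.098 to 0.078 (adjusted p = 0.87). The bounds of both intervals are closer to 0 than the change of any of the 5 cyclins. SWI6, the subunit that SBF and MBF share, had wild-type levels of 9.85, 9.76 and 9.84 and deletion levels of 9.71, 9.62 and 9.74. All 3 deletion values lay below the wild-type ones, but the change of -0.13 (95% interval -0.24 to -0.018) did not pass over all probe sets (adjusted p = 0.0792). Without wild-type replicate 2 SWI6 was at -0.16 with an adjusted p of 0.0485, and with array weights at -0.13 with 0.0162.

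WHI5, the inhibitor that keeps SBF off in early G1, had wild-type levels of 7.27, 7.30 and 7.41. In the deletion its levels were 7.10, 7.23 and 7.18. The deletion values lay below the wild-type ones, and the gap between the nearest arrays of the groups was small. The change was -0.16 (95% interval -0.28 to -0.030), with a limma adjusted p of 0.067. It was 0.0499 with each array centred on its median and 0.0133 with array weights.

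SRL3 had the largest change of the 10 genes and the 15th highest of all tested probe sets. Its levels were 8.83, 9.02 and 9.01 in the wild type and 10.07, 10.03 and 9.99 in the deletion. The groups did not overlap, and wild-type replicate 2 was here the highest wild-type array, unlike for CLN1, CLN2, PCL1 and PCL2. The change was 1.07 (SE 0.057, limma adjusted p = 6.01e-05), a fold of 2.11. Leaving out 1 array at a time moved it between 1.02 and 1.11.

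**Figure D2:**
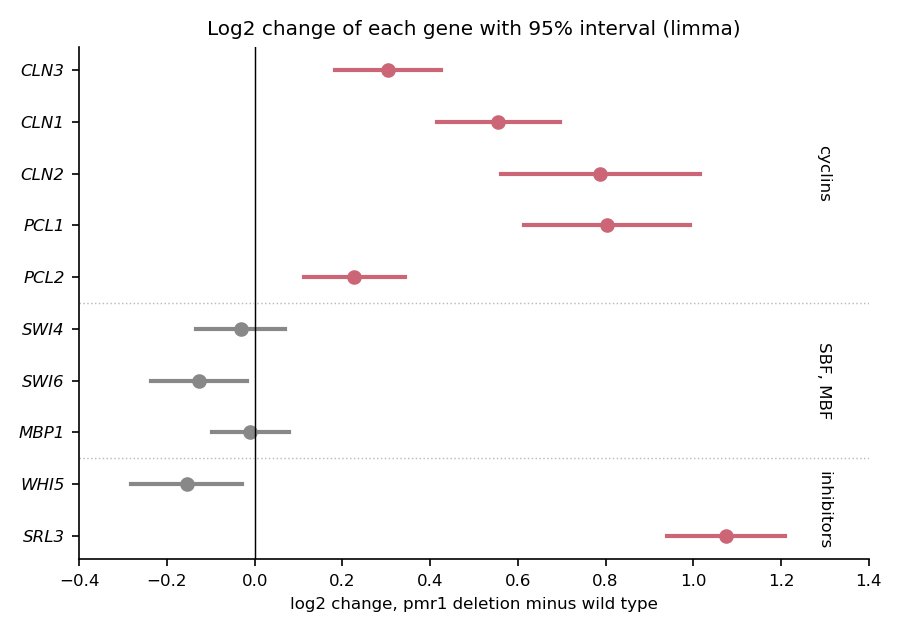
Log2 change (pmr1 deletion minus wild type) of each gene as a point with its 95% limma interval as a line, red where the adjusted p was under 0.05, grouped by role. The 5 cyclins and SRL3 lie above 0, from 0.23 for PCL2 to 1.07 for SRL3, and the other 4 genes lie between -0.16 and -0.010.

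The groups did not overlap for 8 of the 10 genes, 6 higher and 2 lower. Over all tested probe sets the groups did not overlap for 46.7%, with 27.4% higher and 19.3% lower. The 20 protein-coding genes that adjoin the 10 in the R64 gene table were all measured, and 0 of them overlap a member. Of these neighbours 5 rose and 0 fell, a share of 25% higher against the 17.5% over all probe sets, with the largest such rise at 0.22. The rises of CLN1, CLN2, CLN3, PCL1 and SRL3 were larger than that of any called neighbour, and that of PCL2, at 0.227 against 0.215, was slightly larger.

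Related genes of one role were compared by the difference of their log2 values on each array, which removes what the 2 share. For SRL3 minus WHI5 the difference was 1.57, 1.72 and 1.59 on the wild-type arrays and 2.96, 2.79 and 2.81 on the deletion arrays. The changes of the 2 inhibitors thus differed by 1.23. For PCL1 minus PCL2 the difference was 1.21, 1.02 and 1.15 in the wild type and 1.64, 1.77 and 1.69 in the deletion, so that PCL1 changed by 0.58 more. CLN2 changed by 0.23 more than CLN1, with differences of 0.26, 0.16 and 0.33 against 0.39, 0.51 and 0.56. In these 3 pairs the groups did not overlap, and a two-sided exact permutation test gave p = 0.1, or 0.133 adjusted over the 4 pairs tested. This is the lowest p that groups of 3 can give, and no pair could therefore pass a threshold of 0.05. For SWI4 minus MBP1 the groups overlapped, and the changes differed by -0.021 (exact p = 0.8, adjusted 0.8).

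The targets of SBF beyond these cyclins include genes of the cell surface and of bud growth. Their list was chosen with earlier results of these data known, so its counts only describe these genes. Of 30 measured targets, members left out, 17 rose and 0 fell, a share of 56.7% higher beside the 17.5% of all probe sets. Their median change was 0.21, against 0.0095 over all probe sets. SVS1, a cell wall and vacuolar gene named for vanadate sensitivity, had wild-type levels of 13.35, 13.14 and 13.36 and deletion levels of 13.98, 14.01 and 13.93, and rose by 0.69 (SE 0.063, limma adjusted p = 0.000436). PRY2, a secreted sterol-binding protein, rose by 0.62 (SE 0.044, adjusted p = 0.000173), and CRH1, an enzyme that links chitin to glucan in the wall, rose by 0.60 (SE 0.065, adjusted p = 0.000908). In these 3 genes all deletion arrays stood above all wild-type arrays.

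Other SBF targets, named after their values were seen, rose by less. GIC2, an effector of Cdc42 in bud emergence, rose by 0.40 and YOX1, a repressor of M/G1 genes, by 0.40. RSR1, the GTPase of bud site choice, rose by 0.32 and HCM1, a forkhead factor of S phase, by 0.29. CSI2, a gene linked to chitin synthesis, rose by 0.50 (adjusted p = 0.0217), but this became 0.0503 to 0.0648 when replicate 3 of the wild type or replicate 1 or 2 of the deletion was left out. The 13 targets that did not pass had changes from -0.073 to 0.22, among them FKS1, a subunit of glucan synthase, with 0.13 (adjusted p = 0.0578), and HO, the mating-type endonuclease gene, with 0.047. Calls of 5 of the 17 ended without at least 1 array.

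**Figure D3:**
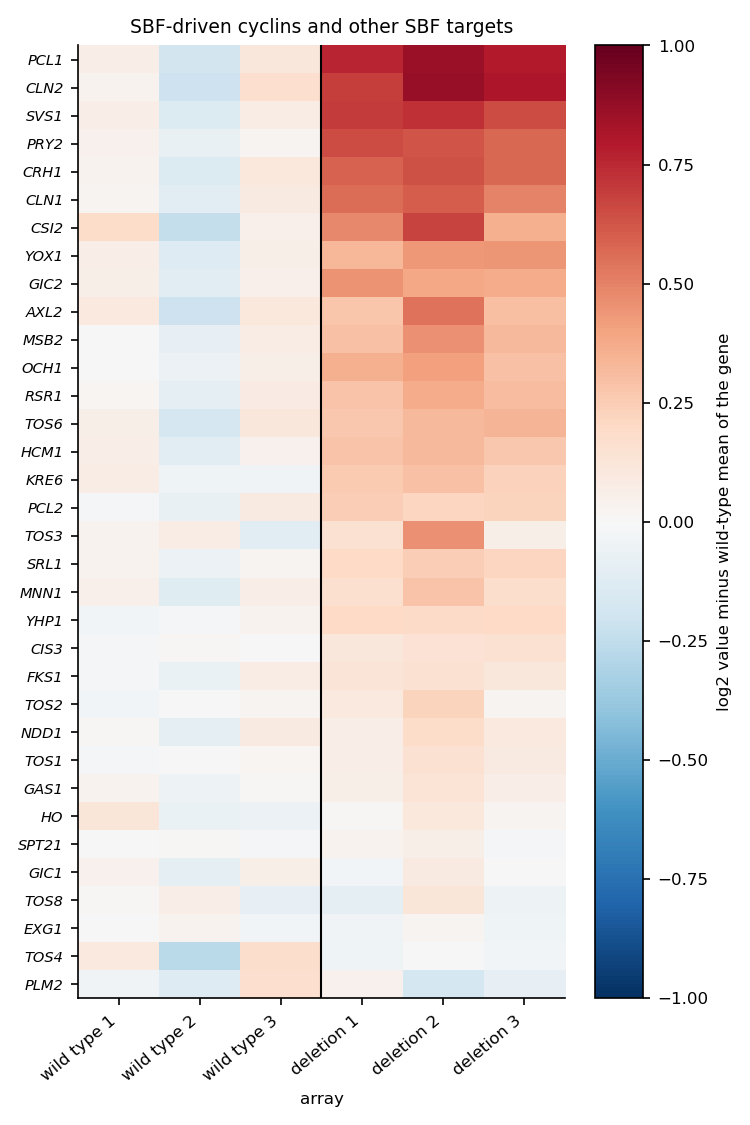
Log2 value minus the gene's wild-type mean on each of the 6 arrays (columns) for CLN1, CLN2, PCL1, PCL2 and the 30 other SBF targets (rows), ordered by change, red for higher and blue for lower. The deletion arrays are red for the upper rows, with 0.80 for PCL1 at the top, and wild-type replicate 2 is blue in most rows.

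Wild-type replicate 2 had the lowest wild-type value for 22 of the 30 SBF targets and for 5 of the 10 members, against 33.4% of all tested probe sets. Its difference from the mean of the other wild-type arrays had a median of -0.12 for the SBF targets, -0.063 for the members and 0.013 over all probe sets. Without it 15 SBF targets were higher and 1, TOS4, was lower, with a median change of 0.19, and 6 members were higher and 1, SWI6, was lower. Over all probe sets 18.9% were higher in that comparison. The rises of CLN1, CLN2, PCL1 and PCL2 were smaller without this array and still past the threshold.

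The targets of MBF, which serve DNA replication and repair, showed few calls. Of 30 measured targets 2 rose and 1 fell, shares of 6.67% and 3.33%, and the median change was 0.0021. SWE1, the kinase that restrains Cdc28 before mitosis, rose by 0.44 (SE 0.066, limma adjusted p = 0.00378). DUN1, a checkpoint kinase, rose by 0.22, with a call that ended without deletion replicate 1 (adjusted p = 0.0554). RFA2, a subunit of the single-strand binding complex, fell by 0.17, with an adjusted p from 0.0527 to 0.11 when any 1 of the 6 arrays was left out. The S-phase cyclin genes CLB5 and CLB6, named after their values were seen, had changes of 0.082 (adjusted p = 0.347) and -0.00050 (0.996). RNR1, the large subunit of ribonucleotide reductase, had a change of -0.094 (0.211). Wild-type replicate 2 was the lowest wild-type array for 22 of these 30 genes too. Whether SBF and MBF targets differed as groups was not tested.

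**Figure D4:**
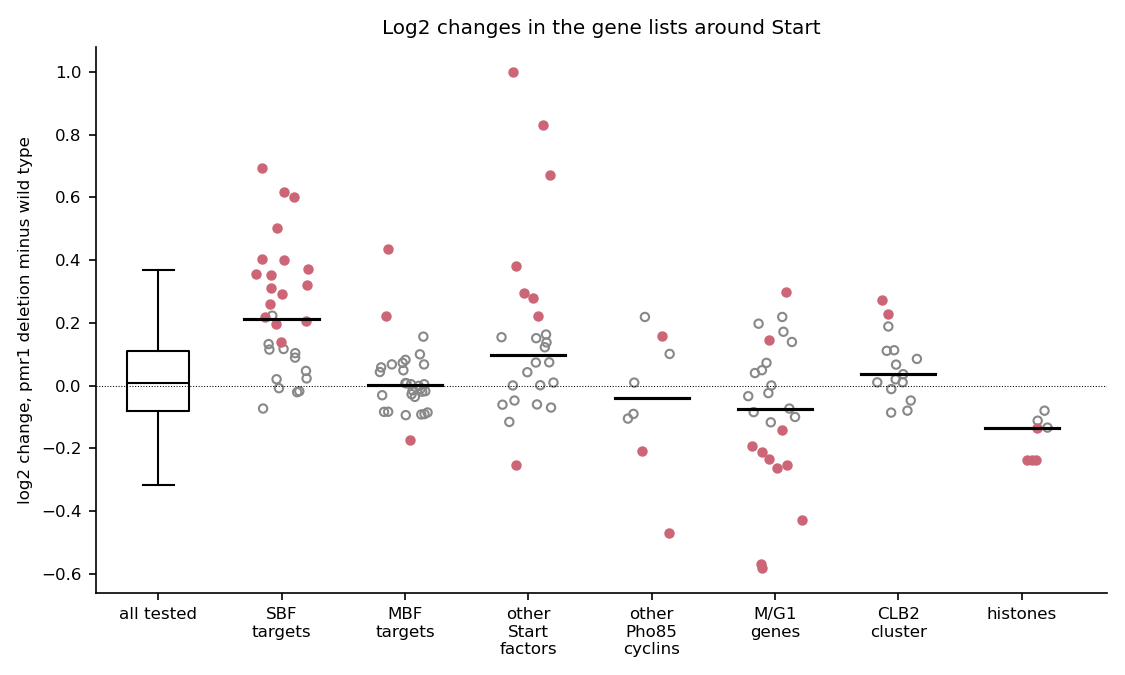
Log2 change (pmr1 deletion minus wild type) of each gene in 7 lists around Start, filled where the adjusted p was under 0.05, with a line at the median of each list. The box shows all 5498 tested probe sets, with quartiles and whiskers at the 5th and 95th percentiles, and the SBF targets have the highest median of the 7 lists, 0.21. The lists were chosen with earlier results of these data known.

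Among 24 other measured factors that act on the G1 cyclins, SBF or MBF, 7 rose and 1 fell, shares of 29.2% and 4.17%, with a median change of 0.099. The largest rises were those of KDX1, at 1.00 (SE 0.076, limma adjusted p = 0.000222), and SLT2, at 0.83 (SE 0.047, adjusted p = 8.18e-05). SLT2 encodes the kinase of the cell wall integrity pathway, which can also act on SBF, and KDX1 encodes its kinase-like paralog. CDC28, the cyclin-dependent kinase itself, had wild-type levels of 11.10, 11.07 and 11.10 and deletion levels of 11.47, 11.46 and 11.48. It rose by 0.38 (SE 0.032, adjusted p = 0.0003), with no overlap of the groups. XBP1, a stress-induced repressor of CLN1, rose by 0.67 (adjusted p = 0.043). Its wild-type levels were spread from 6.06 to 6.95, with replicate 2 the highest, and leaving out wild-type replicates 1 or 3 or any deletion replicate gave an adjusted p of 0.0589 to 0.115.

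The regulators AZF1, SKN7 and CDC4 completed the 7 rises of this list, and they were named after their values were seen. AZF1, an activator of CLN3, rose by 0.30 (adjusted p = 0.00425), SKN7, a factor that also acts at G1 cyclin promoters, by 0.28, and CDC4, the F-box protein that marks Sic1 for breakdown, by 0.22. FAR1, the inhibitor of Cln kinases in pheromone arrest, fell by 0.25 (adjusted p = 0.0166), and without wild-type replicate 1 or deletion replicate 3 its adjusted p was 0.051 to 0.0563. SIC1, the inhibitor of S-phase kinases, had a change of 0.00090 (adjusted p = 0.99), BCK2, a route to Start that is independent of Cln3, 0.15 (0.0588), and WHI3, which binds CLN3 transcript, 0.0016 (0.984).

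The cyclins of Pho85 other than PCL1 and PCL2 were called in both directions. Of 8 measured, 1 rose and 2 fell, with a median of -0.040. PCL7, a cyclin linked to glycogen metabolism, had wild-type levels of 10.95, 11.04 and 10.93 and deletion levels of 10.51, 10.53 and 10.48, and fell by 0.47 (SE 0.042, limma adjusted p = 0.000436). PCL10 fell by 0.21, with a call that ended without deletion replicate 3 (adjusted p = 0.0502). CLG1 rose by 0.16, and leaving out wild-type replicate 3 or any deletion replicate gave 0.0607 to 0.0794. Without wild-type replicate 2 the list had 3 rises, those of CLG1, PCL9 at 0.30 (adjusted p = 0.00245) and PCL5 at 0.14 (0.0481), and over the 6 such removals its median ran from -0.066 to -0.015. PHO80, the cyclin of the phosphate pathway, had a change of 0.010, and PHO85, the kinase, 0.043 (adjusted p = 0.49).

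Genes of the phases on both sides of Start were described by the same counts. Of 25 measured genes of late mitosis and early G1, 2 rose and 9 fell, shares of 8% and 36%, with a median of -0.073. FAR1 and SIC1 are also among the other Start factors and PCL9 among the Pho85 cyclins, so the fall of FAR1 is counted in both lists. The largest falls were those of DSE2 at -0.58 (SE 0.066, limma adjusted p = 0.00109), DSE1 at -0.57 (SE 0.047, adjusted p = 0.0003) and SCW11 at -0.43 (SE 0.041), which act in the separation of daughter cells. Among other genes of separation in the list, CTS1 fell by 0.26 (limma adjusted p = 0.0106) and DSE3 by 0.19 (0.026). For DSE3 the adjusted p was 0.0566 to 0.0841 when replicate 1 or 3 of the wild type or replicate 1 or 2 of the deletion was left out. DSE4 at 0.050 (adjusted p = 0.508), EGT2 at -0.10 (0.207) and AMN1 at -0.073 (0.29) did not pass. MCM7 fell by 0.23 (adjusted p = 0.00706), MCM3 by 0.21 (0.0168) and MCM6 by 0.14 (0.0256). The calls of MCM3 and MCM6 ended without 2 and 4 of the arrays, and MCM2, MCM4 and MCM5 did not pass. The bud site gene BUD9 rose by 0.30 (adjusted p = 0.00364). CDC6 rose by 0.15 (adjusted p = 0.0474), with a call that ended without 5 of the arrays. In this list 6 rose without wild-type replicate 2 and 5 fell without wild-type replicate 1. Of 15 measured genes of the CLB2 cluster, expressed in G2 and M, 2 rose and 0 fell, with a median of 0.037, which was 0.078 without wild-type replicate 2 and 0.019 without wild-type replicate 3. KIN3, a kinase gene, rose by 0.27 (adjusted p = 0.0125), and CHS2, the chitin synthase of the septum, by 0.23, with an adjusted p of 0.0573 to 0.0599 when replicate 1 or 3 of the wild type or replicate 1 or 2 of the deletion was left out. The mitotic cyclin gene CLB2 had a change of -0.079 (adjusted p = 0.362).

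Of 7 measured core histone genes, which are transcribed in S phase, 4 fell and 0 rose, with a median of -0.13. HHF1 fell by 0.24 (adjusted p = 0.00573). Its probe set, by its suffix, may also hybridise with transcripts of nearly the same sequence. The calls of HTB2, HHT1 and HTA2 ended without 1, 3 and 4 of the arrays, and 1 histone gene fell without deletion replicate 1, 2 without wild-type replicate 1 and 2 without deletion replicate 3, while 6 fell without deletion replicate 2. All 7 genes were lowest in replicate 2 among the wild-type arrays. The part that the share of cells in each phase has in these values was not tested.

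The genes whose levels ran most like those of SRL3, the member with the largest change, were found by Pearson's r over the 6 arrays. They were PRM8 (r = 0.9995), ERG9 (0.9992), KTR2 (0.9991), ADO1 (0.9985) and YGR111W (0.9985). In all, 80 of 5448 genes had an r above 0.99. The size of their change was not part of this measure. SRL3 was picked for a large gap between the groups, so a high r over these arrays mostly restates that gap. KTR2, a mannosyltransferase gene of the Golgi, rose by 1.03 (SE 0.044, limma adjusted p = 3.14e-05), and ADO1, the adenosine kinase gene, by 0.14 (SE 0.031, adjusted p = 0.0172).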

How the data were processed

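The authors deposited log2 expression values for 10928 probe sets on 6 arrays, and per the submitters' processing notes GCOS, RMA and limma were used, with no versions given. RMA corrects background, gives the arrays a common distribution and compresses large folds. Per the labels, 100 ng of total RNA was labelled per array. The table has 0 columns of other samples, and no source used here names the genome build of the array design. Named through the probe annotation and the R64 gene table, 5498 S. cerevisiae probe sets were tested, and 1747 S. pombe, 3470 unnamed and 213 control ones were left out. Where a gene has several probe sets, that with the highest mean was used.

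Groups were compared with limma 3.58.1 (lmFit, eBayes, two-sided) in R 4.3.3, with p-values adjusted after Benjamini and Hochberg across the 5498 probe sets and a threshold of 0.05. The code was tested on simulated data. The number of arrays limits the precision, and the median SE of a change was 0.0477. Paralogs were compared by exact permutation with SciPy 1.17.1, and matplotlib 3.10.9 under Python 3.11.15 drew the figures. The labels give no batch.

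The members, the gene lists and the tests were chosen with earlier results of these data known. Named genes were all members, PMR1, up to 4 called genes of each list with the largest change, the 5 genes most like the member of largest change, and those said to be named after their values were seen. GIC2, YOX1, RSR1, HCM1, FKS1, HO, TOS4, RNR1, FAR1, SIC1, BCK2, WHI3, PCL5, PCL9, PHO80, PHO85, CTS1, DSE3, DSE4, EGT2, AMN1, CDC6, MCM2, MCM3, MCM4, MCM5, MCM6, MCM7, CLB2 and the mating-type markers also fall outside that rule. A planned search for promoter motifs was not run, as no promoter sequence was used here.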

Additional observations from a re-analysis of the deposited data

How the results depend on the processing

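The rises of CLN1, CLN2, CLN3, PCL1 and SRL3 stayed past the threshold in the same direction under robust priors with an intensity trend, quantile or median scaling, removal of dim probe sets, a test of every probe set on the array, array weights, the replicate block, averaging of probe sets and without any 1 array. Their changes without 1 array ran from 0.50 to 0.60 for CLN1, 0.69 to 0.87 for CLN2, 0.25 to 0.34 for CLN3, 0.71 to 0.86 for PCL1 and 1.02 to 1.11 for SRL3. PCL2, at 0.23 with all probe sets of the array, lost its call there (adjusted p = 0.0626), and ran from 0.19 to 0.27 without 1 array. With array weights SWI6 was at -0.13 and WHI5 at -0.19, both past the threshold, and with median centring WHI5 was at -0.16 and past it. Without 1 array SWI6 ran from -0.16 to -0.093 and WHI5 from -0.19 to -0.11. MBP1 turned to 0.020 with array weights and ran from -0.027 to 0.018 without 1 array, never past the threshold. The difference of SWI4 and MBP1 was 0.0059 with quantile scaling and -0.059 to 0.011 without 1 array.

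The count of members higher was 5 or 6 under all these settings. The count lower was 0, but 1 with median centring, 2 with array weights and 0 to 1 without 1 array. With all probe sets of the array the counts over all features were 548 higher and 325 lower, a test that includes 10928 probe sets. With array weights 1434 were higher, against 963, and 1087 were lower, against 642. Without 1 array 599 to 1041 were higher and 373 to 629 lower. Same-numbered arrays had deviations from their group means that correlated at -0.138, 0 and 0.081, and arrays of unlike number at -0.137 to 0.146. With 3 arrays per group this cannot show whether same-numbered arrays had a common origin, on which the labels say nothing. With the replicate block 805 were higher and 570 lower, and 6 members were higher and 0 lower, as without it.

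Among the lists, SBF targets had 12 to 20 rises over the settings and 0 falls, apart from TOS4 without wild-type replicate 2. Without 1 array the median ran from 0.18 to 0.23 for SBF targets, -0.026 to 0.022 for MBF targets and -0.097 to -0.048 for M/G1 genes. The median of the other Start factors was 0.078 to 0.11 without 1 array, and the median of the histones was -0.22 with probe sets averaged per gene. With all probe sets of the array, 1 M/G1 gene was higher and 5 lower, 0 CLB2 cluster genes were called and 1 histone gene was lower. With array weights 6 M/G1 genes were higher, 5 MBF targets were lower and 11 other Start factors were higher. In that setting 1434 of the 5498 tested probe sets were higher and 1087 were lower. The cause of these shifts was not tested.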
